A study of Mus musculus with 9 samples.

Results

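Collagen genes encode the alpha chains from which every collagen molecule of the extracellular matrix is wound. They were taken here as all genes whose symbol is Col, a number, a and a number: 44 such genes are named among the 39171 genes of the authors' deposited comparison of resection with sham, and 29 of them are rows of the authors' expression matrix of 14479 genes. The 29 comprise 10 fibrillar collagens, 6 basement membrane collagens, 4 FACIT collagens (fibril-associated collagens with interrupted helices) and 9 others. RNA was sequenced from the lower part of the ventricular apex of newborn CD-1 mice, an outbred strain, operated on postnatal day 1 and collected on postnatal day 2. The 3 groups, of 3 libraries each, were sham surgery, removal of the ventricular apex (resection), and removal of the apex together with section of the left vagus nerve (the vagotomy group). A group with vagotomy and no resection was not analysed here. The labels give neither the sex of the pups nor whether a library came from 1 pup or from a pool, so p-values measure only the spread between these samples, which may be technical.

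In fibrillar collagens the chains form an unbroken helix, and the molecules pack side by side into the cross-linked fibres that give heart muscle its tensile strength; types I and III are the bulk of cardiac interstitial collagen and come mainly from fibroblasts. Type IV collagen forms the open network of basement membranes around cardiomyocytes, endothelium and smooth muscle, and the multiplexins, types XV and XVIII, anchor that network to the surrounding matrix. FACIT collagens coat fibrils and set their spacing and diameter, while type VI forms beaded filaments between basement membrane and fibrils. After an injury to the heart, fibroblasts deposit a provisional matrix in which collagens are laid down, cross-linked and remodelled by proteases.

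Expression is given as FPKM, fragments counted per kilobase of transcript and scaled to the mapped fragments of the library, so that levels can be compared between genes. Library medians over all listed genes ran from 7.52 to 8.29 FPKM. The library of vagotomy replicate 3 listed 265 of 12699 protein-coding genes at 0, against 28 to 66 in the other libraries. Read depth is unknown, because the files give no counts. Since these are bulk samples, fewer cells of a type and less RNA per cell cannot be told apart. Within a group, collagens were often highest together in 1 library: sham replicate 1 was the highest of its group for 20 of the 29 collagens (38.9% of all listed genes), resection replicate 1 for 22 (35.6%) and vagotomy replicate 3 for 18 (43.4%).

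Summed over the family, collagen expression differed little in mean between the 3 groups, and Col3a1 and Col1a2 took different shares of it. The summed FPKM of the 29 genes was 2093 ± 560.1 (SD, n = 3) in sham, 2052 ± 453 after resection and 1955 ± 449.5 after resection with vagotomy, with overlapping libraries. Fibrillar collagens made up 67.9% ± 0.515 of that sum in sham, 63.1% ± 4.45 after resection and 63.3% ± 4.73 in the vagotomy group. Basement membrane collagens made up 20.4%, 23.9% and 22.5%, FACIT collagens 3.83%, 2.74% and 2.07%, and the others 7.88%, 10.25% and 12.1%. Col3a1 held 31.3% ± 4.92 of the sum in sham and 28.1% ± 5.71 after resection but 14.2% ± 3.76 in the vagotomy group, whose 3 libraries (10.1%, 15.1% and 17.5%) all lay below the 6 others (22.5% to 35.3%). Col1a2 held 7.84% ± 0.459, 9.94% ± 1.26 and 20.7% ± 5.60, and its 3 vagotomy libraries (16.1% to 27.0%) all lay above the 6 others (7.33% to 10.95%).

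**Figure D1:**
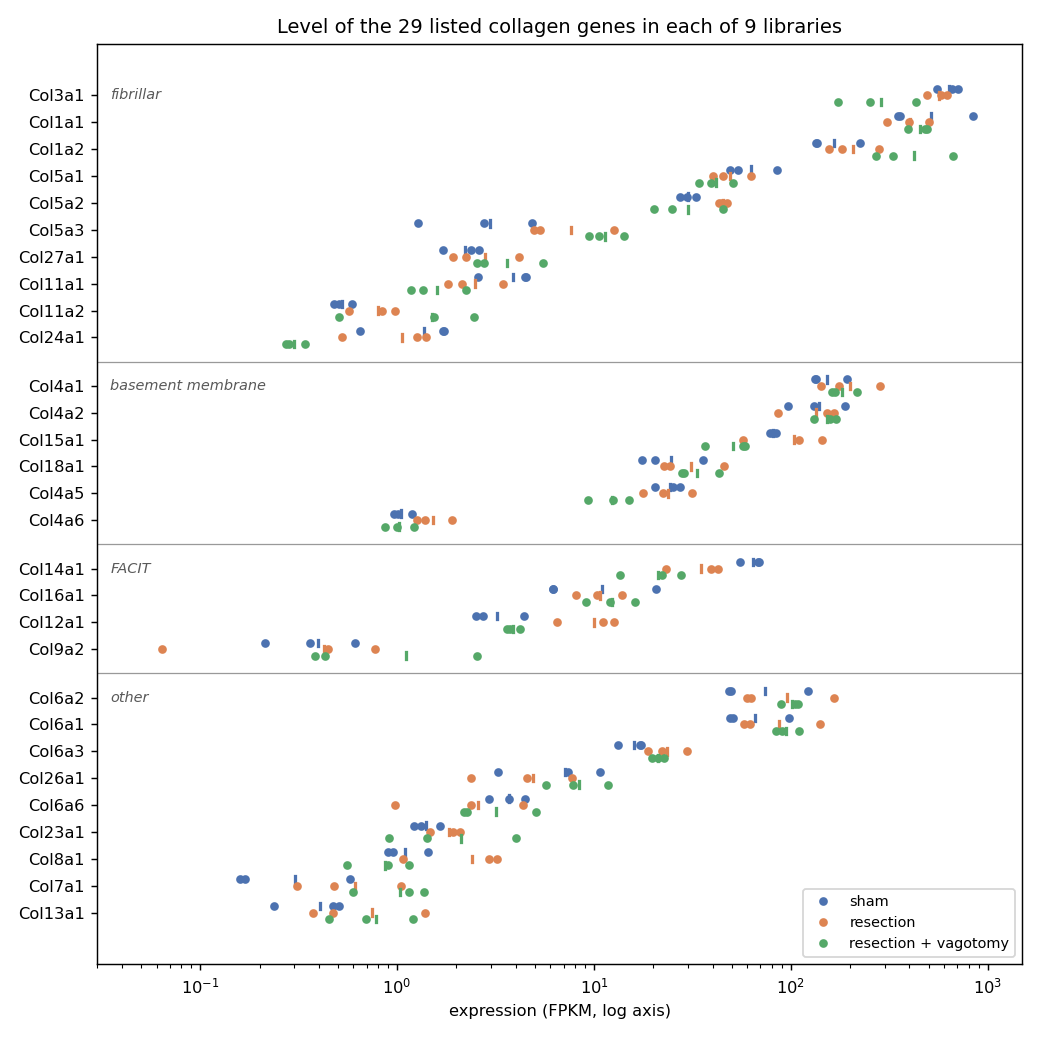
FPKM (log axis) of the listed collagen genes in each of the 9 libraries, by collagen class; each point is a library, coloured by group, and the bar marks the group mean. Col3a1 and Col14a1 are lower, and Col5a3 higher, in all 3 vagotomy libraries than in all 3 sham libraries.

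For each gene, groups were compared on log2(FPKM + 1) with limma, a linear model with variances moderated across genes, and Benjamini-Hochberg adjustment over the 13249 genes that averaged 1 FPKM or more; a call is an adjusted p of at most 0.05. Of the 29 collagens 24 passed that filter; Col11a2, Col24a1, Col7a1, Col9a2 and Col13a1 did not and are given by their values only. Between resection and sham no tested collagen was called, where 0.294% of all tested genes were (0.287% higher and 0.00755% lower); 3 of 24 had an unadjusted p under 0.05, against 5.89% of all genes, and the authors' own test, described further on, called 5. Between vagotomy and resection no collagen was called by limma (3.52% of all tested genes were, 1.97% higher and 1.55% lower); 6 of 24 had an unadjusted p under 0.05 (24.2% of all genes), and the authors' test called 6. The labels state no pairing of libraries. In an alternative fit with a block for replicate number, over all 9 libraries, limma called 2 in this contrast, Col12a1 and Col4a5. The share of all tested genes called in that fit is not given here. Between vagotomy and sham Col5a3 rose and Col14a1 fell, 2 of 24 against 10.1% of all tested genes (5.81% higher and 4.26% lower); 6 of 24 had an unadjusted p under 0.05, against 30.1% of all genes. The F-test for any difference among the 3 groups called Col12a1 and Col14a1, against 5.89% of all tested genes. The median log2 change of the tested collagens was 0.24 for resection minus sham, -0.04 for vagotomy minus resection and 0.21 for vagotomy minus sham, beside -0.01, 0.02 and 0.03 over all tested genes. Without resection replicate 1 the first of these medians was -0.03, and without vagotomy replicate 3 the third was -0.0026.

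By position alone, 5 of the 29 collagens (Col12a1, Col4a6, Col5a2, Col5a3 and Col6a3) were higher in every resection library than in every sham library, and 1 (Col14a1) was lower in every one; the shares over all listed genes were 6.72% and 4.68%, 11.4% in all. In the vagotomy group 0 were higher and 5 (Col12a1, Col24a1, Col3a1, Col4a5 and Col4a6) lower than in every resection library, where 13.6% and 11.9% of all listed genes were, 25.5% in all. Against sham, 4 (Col1a2, Col5a3, Col6a3 and Col7a1) were higher and 6 (Col11a1, Col14a1, Col15a1, Col24a1, Col3a1 and Col4a5) lower in every vagotomy library, where 19.5% and 16.6% of all listed genes were, 36.1% in all. Every row of the matrix exceeds 1 FPKM in at least 1 library. Col7a1 did so in operated libraries only and Col24a1 in sham and resection libraries only, so their listing is not independent of their positions.

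Among the fibrillar collagens, Col3a1 and Col5a3 differed in opposite directions in the vagotomy group and are also far apart in base composition, so the 250 bases before each start site are shown. The sequences are RefSeq's for GRCm38.p6, 5′ to 3′ on the strand of the gene; capitals mark exact matches, on either strand, to a short promoter motif. The motif searched as the TATA box was TATAAA. The CCAAT box was searched by its own letters, and the GC box was searched as GGGCGG.
Col3a1, chr1:45311288-45311537, plus strand: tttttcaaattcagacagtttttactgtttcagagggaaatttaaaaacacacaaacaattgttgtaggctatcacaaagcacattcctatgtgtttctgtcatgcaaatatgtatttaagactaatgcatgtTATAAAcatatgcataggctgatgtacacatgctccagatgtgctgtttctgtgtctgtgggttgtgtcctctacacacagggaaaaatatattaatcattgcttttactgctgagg
Col5a3, chr9:20815068-20815317, minus strand: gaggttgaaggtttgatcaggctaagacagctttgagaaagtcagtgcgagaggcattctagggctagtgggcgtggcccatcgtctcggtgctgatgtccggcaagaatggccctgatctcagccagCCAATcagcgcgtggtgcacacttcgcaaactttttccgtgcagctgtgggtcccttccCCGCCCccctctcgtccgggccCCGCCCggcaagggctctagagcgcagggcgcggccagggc
The Col3a1 window has 35.2% GC and 1 TATAAA, which begins 117 bases before the start. The Col5a3 window has 62.8% GC, 1 CCAAT and 2 GC boxes. TATAAA or its reverse was found in 12.4% of all 32851 RefSeq windows of this length, CCAAT in 33.8% and GGGCGG in 32.7%; a match is a description of the letters, not a binding site.

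Col3a1, the type III chain that forms homotrimers and is abundant in compliant tissues, lies at chr1:45311538-45349706 on the plus strand (GRCm38, GENCODE M21). It measured 704.5, 655.9 and 551.6 FPKM in the sham libraries, 579.5, 617.9 and 489.6 after resection, and 174.2, 251.8 and 431.5 after resection with vagotomy. All 3 vagotomy libraries were below all 6 others, and vagotomy replicate 3 was the nearest to them. The log2 change was -0.18 (SE 0.35, adjusted p = 1.0) for resection minus sham, -1.07 (adjusted p = 0.108) for vagotomy minus resection and -1.25 (adjusted p = 0.0503) for vagotomy minus sham. The last value lay at the threshold: it passed in 10 of 21 alternative analyses, with adjusted p from 0.0232 to 0.172. Without vagotomy replicate 3 it was -1.59 (adjusted p = 0.0339) against sham and -1.41 (adjusted p = 0.0731) against resection.

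Col1a1 and Col1a2 encode the chains of type I collagen, which joins them in a fixed ratio of more Col1a1 than Col1a2 product. Col1a1 (chr11:94936224-94953042, plus strand) measured 840, 351 and 358 FPKM in sham, 504, 309 and 400 after resection and 489, 395 and 479.5 in the vagotomy group, and the groups overlapped. Its log2 changes were -0.25, 0.19 and -0.06 for resection minus sham, vagotomy minus resection and vagotomy minus sham. Col1a2 (chr6:4504814-4541544, plus strand) measured 225, 136 and 134.5 FPKM in sham, 282, 156 and 182 after resection and 329, 269 and 667 in the vagotomy group. Every vagotomy library was above every sham library, and vagotomy replicate 3 was the highest of all. The log2 change was 0.96 (SE 0.40, adjusted p = 0.178) against resection and 1.28 (SE 0.40, adjusted p = 0.068) against sham; without vagotomy replicate 3 the latter was 0.89 (adjusted p = 0.17).

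The type V chains, minor components that nucleate and narrow type I fibrils, differed from one another. Col5a1 (chr2:27886425-28039514, plus strand), the chain present in most type V molecules, averaged 62.6 ± 19.8 FPKM in sham, 49.3 ± 11.6 after resection and 41.5 ± 8.67 in the vagotomy group, with overlap. Col5a2 (chr1:45374321-45503282, minus strand) measured 27.3, 29.7 and 33.05 FPKM in sham, 47.2, 44.5 and 43.3 after resection, and 20.3, 25.04 and 45.1 in the vagotomy group. All resection libraries were above all sham libraries, while the vagotomy libraries spanned both; the log2 change for resection minus sham was 0.57 (SE 0.29, adjusted p = 1.0). Col5a2 is the tail-to-tail neighbour of Col3a1 on chromosome 1, 24614 bases away.

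Col5a3 (chr9:20770050-20815067, minus strand), the less widespread type V chain, measured 4.87, 1.28 and 2.77 FPKM in sham, 12.6, 4.94 and 5.31 after resection and 10.6, 9.41 and 14.1 in the vagotomy group. Both operated groups lay wholly above sham and overlapped each other. Relative to sham it was 2.57 times as high after resection (log2 change 1.11, SE 0.41, adjusted p = 0.563) and it rose 3.83-fold in the vagotomy group (log2 change 1.73, SE 0.41, adjusted p = 0.0294). Without sham replicate 2 the adjusted p of that rise was 0.126, without sham replicate 3 it was 0.11, and without vagotomy replicate 1, 2 or 3 it was 0.0641, 0.0586 or 0.0858.

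The remaining fibrillar collagens were low. Col11a1, a nucleating chain of cartilage and embryonic fibrils, measured 2.56, 4.48 and 4.53 FPKM in sham, 2.15, 3.46 and 1.81 after resection and 1.18, 2.23 and 1.36 in the vagotomy group, which lay wholly below sham (log2 change -0.90, SE 0.30, adjusted p = 0.0775). Col24a1, not tested, measured 0.648, 1.74 and 1.72 FPKM in sham, 0.526, 1.26 and 1.40 after resection and 0.340, 0.273 and 0.282 in the vagotomy group, again wholly below both other groups. Col27a1 averaged 2.22, 2.78 and 3.60 FPKM in the 3 groups and Col11a2 0.525, 0.795 and 1.5, both with overlap. Over the 8 tested fibrillar collagens the median log2 change was 0.01 for resection minus sham, -0.03 for vagotomy minus resection and -0.07 for vagotomy minus sham.

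Of the basement membrane collagens, the major type IV chains kept close levels and Col4a5 was lower in the vagotomy group, with no call by limma. Col4a1 (chr8:11198423-11312826, minus strand) measured 193, 133 and 134 FPKM in sham, 284, 175 and 143 after resection and 162, 167 and 217 in the vagotomy group. Col4a2 (chr8:11312805-11449287, plus strand), its partner in the most common type IV molecule, averaged 138 ± 46.2, 134 ± 42.3 and 152 ± 19.2 FPKM. Groups overlapped for both, and their log2 changes ran from -0.09 to 0.35. The annotated ends of these head-to-head genes overlap by 22 bases and share 1 deposited locus, so reads at that overlap cannot be assigned without strand.

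Col4a5 (chrX:141475385-141689234, plus strand), a chain of the less common type IV networks and the gene altered in X-linked Alport syndrome, measured 20.3, 27.4 and 25.3 FPKM in sham, 17.7, 31.6 and 22.4 after resection and 9.37, 15.05 and 12.5 in the vagotomy group. All 3 vagotomy libraries were below all 6 others, at 0.515 times the resection mean and 0.505 times the sham mean. The log2 change was -0.89 (SE 0.28, adjusted p = 0.0981) against resection and -0.94 (SE 0.28, adjusted p = 0.0574) against sham; the latter passed in 8 of 21 alternative analyses, with adjusted p from 0.0111 to 0.21. With the replicate block Col4a5 passed the threshold against resection (adjusted p = 0.0309). Without vagotomy replicate 3 the change against resection was -0.91 (adjusted p = 0.173). Its head-to-head neighbour Col4a6, 1308 bases away, was low, at 0.96, 1.005 and 1.19 FPKM in sham, 1.26, 1.91 and 1.38 after resection and 0.865, 0.993 and 1.22 in the vagotomy group, with every resection library above every other; no log2 change passed the test.

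Of the multiplexins, Col15a1 (chr4:47208161-47313167, plus strand), which bridges basement membrane and fibrils, measured 84.3, 77.9 and 80.7 FPKM in sham, 144, 109 and 57.4 after resection and 58.5, 57.4 and 36.4 in the vagotomy group. The vagotomy libraries lay below all sham libraries and overlapped the lowest resection library. The log2 change was -0.95 (SE 0.35, adjusted p = 0.136) against resection and -0.69 (SE 0.35, adjusted p = 0.207) against sham. An antisense gene, Gm12426, lies within it. Col18a1 (chr10:77052178-77166548, minus strand), whose C-terminal fragment is endostatin, averaged 24.6 ± 9.91, 30.9 ± 13.0 and 33.2 ± 8.68 FPKM with overlap. Over the 6 tested basement membrane collagens the median log2 change was 0.27, -0.20 and 0.08 for resection minus sham, vagotomy minus resection and vagotomy minus sham.

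The FACIT class held both genes called by the F-test, and these moved differently. Col12a1 (chr9:79598991-79718831, minus strand), which coats type I fibrils in tissue under tension, measured 2.74, 2.51 and 4.43 FPKM in sham, 12.6, 11.06 and 6.50 after resection, and 4.23, 3.75 and 3.59 in the vagotomy group. Every resection library was above all 6 others, and the vagotomy libraries lay within the sham range. The F-test gave an adjusted p of 0.0354. The resection mean was 3.12 times the sham mean (log2 change 1.37, SE 0.29, adjusted p = 0.094), and vagotomy minus resection was -1.14 (SE 0.29, adjusted p = 0.0564). With the replicate block the second contrast passed (adjusted p = 0.0471), as it did without resection replicate 3 (adjusted p = 0.0416). The antisense gene 4930562D21Rik shares its deposited locus.

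Col14a1 (chr15:55307750-55520803, plus strand), a fibril-surface collagen that limits fibril diameter, measured 68.8, 68.2 and 55.4 FPKM in sham, 42.7, 39.3 and 23.2 after resection, and 22.2, 27.7 and 13.5 in the vagotomy group. Both operated groups lay wholly below sham, with overlap between them. Against sham it was 0.546 times as high after resection (log2 change -0.89, SE 0.32, adjusted p = 0.559), and in the vagotomy group it fell to 0.33 of the sham level (log2 change -1.61, SE 0.32, adjusted p = 0.0182; F-test adjusted p = 0.0399). The fall lost its call without sham replicate 2 (adjusted p = 0.089), sham replicate 3 (0.0682) or vagotomy replicate 3 (0.0504). The F-test called neither Col12a1 nor Col14a1 without sham replicate 2, sham replicate 3, resection replicate 2 or any single vagotomy replicate; without sham replicate 1 it called Col5a3 alone, and without resection replicate 1 it called Col14a1 and Col5a3.

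The other FACIT collagens showed no separation. Col16a1, found in fibrillin-rich and fibrillar matrix, measured 20.7, 6.19 and 6.16 FPKM in sham, 13.8, 8.14 and 10.3 after resection and 11.99, 9.14 and 16.1 in the vagotomy group. Col9a2, a cartilage FACIT chain, was at most 0.769 FPKM in 8 libraries and 2.53 in vagotomy replicate 2. The 3 tested FACIT genes had median log2 changes of 0.15, -0.71 and 0.23 for resection minus sham, vagotomy minus resection and vagotomy minus sham.

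Among the remaining collagens type VI dominated, and limma called none. Col6a1 (chr10:76708792-76726168, minus strand) measured 97.9, 48.9 and 50.9 FPKM in sham, 141, 61.8 and 57.7 after resection and 89.85, 83.7 and 109 in the vagotomy group. Col6a2 (chr10:76595762-76623630, minus strand), 85161 bases away on the same strand, measured 122.5, 48.6 and 49.8, then 165, 59.9 and 62.4, then 105, 89.01 and 108.5 FPKM. In both genes replicate 1 was by far the highest of the sham and of the resection group. Col6a3 (chr1:90765923-90843971, minus strand), the long chain of type VI, measured 17.3, 13.3 and 17.05 FPKM in sham, 29.5, 22.2 and 18.7 after resection and 19.8, 21.1 and 22.7 in the vagotomy group. Both operated groups lay wholly above sham, with log2 changes of 0.52 (SE 0.24, adjusted p = 0.889) and 0.40 (SE 0.24, adjusted p = 0.290). Col6a6 averaged 3.70 ± 0.759, 2.58 ± 1.71 and 3.17 ± 1.64 FPKM.

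Col8a1 (chr16:57624258-57754737, minus strand), a short-chain collagen of vessel wall and valve, measured 0.904, 1.43 and 0.956 FPKM in sham, 2.94, 3.23 and 1.07 after resection and 1.15, 0.895 and 0.558 in the vagotomy group. Resection replicates 1 and 2 were above every other library, and replicate 3 lay within the sham range. The log2 change was 0.64 (SE 0.33, adjusted p = 0.989) for resection minus sham and -0.81 (SE 0.33, adjusted p = 0.162) for vagotomy minus resection. In the authors' deposited tables it was called higher in the first comparison (q = 0.00161) and lower in the second (q = 0.000995). Col26a1 averaged 7.10 ± 3.72, 4.89 ± 2.67 and 8.44 ± 3.10 FPKM and the transmembrane collagen Col23a1 1.40, 1.83 and 2.11, both with overlap. Col7a1, the anchoring fibril collagen of skin, measured 0.577, 0.169 and 0.1595 FPKM in sham and 0.5935, 1.15 and 1.36 in the vagotomy group, and Col13a1 averaged 0.405, 0.7415 and 0.782; neither was tested. The 7 tested members of this class had median log2 changes of 0.34, 0.23 and 0.29.

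**Figure D2:**
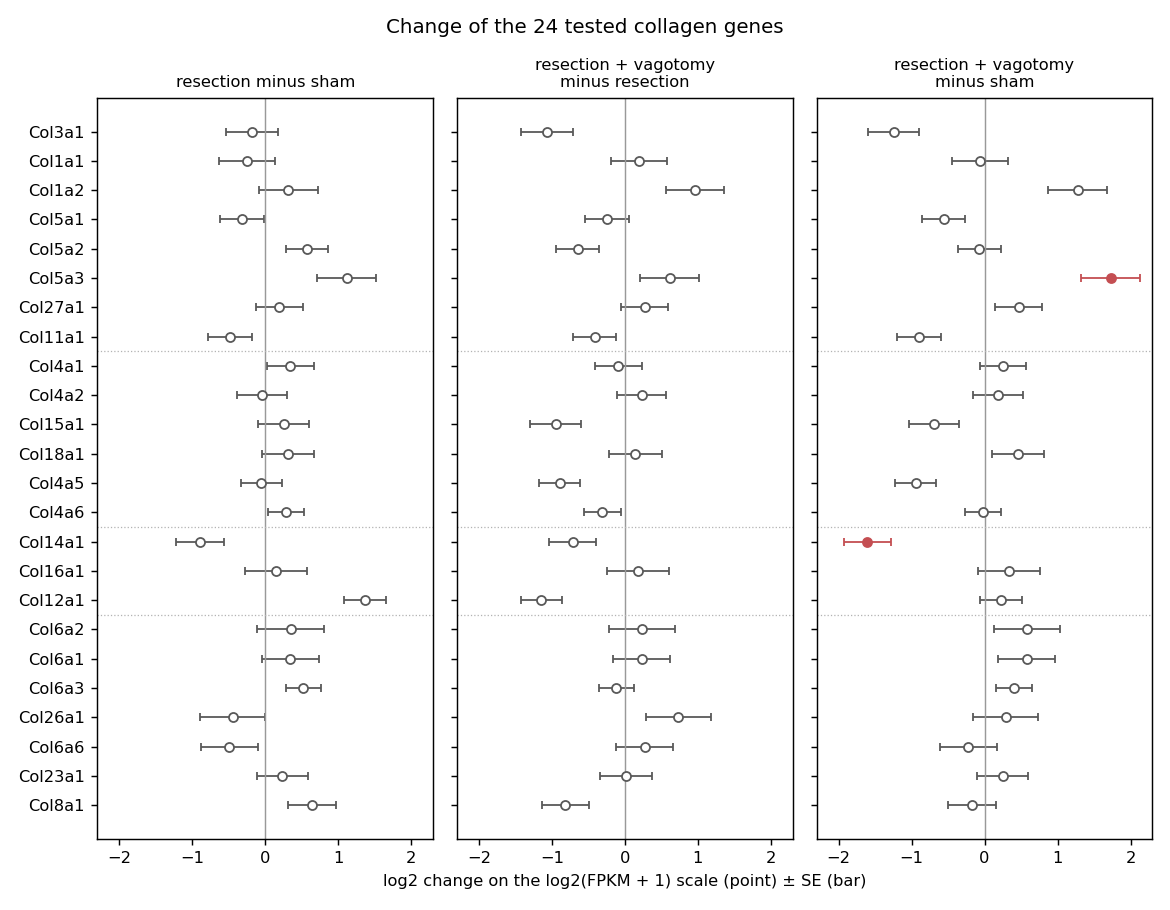
Log2 changes, on the log2(FPKM + 1) scale, of the 24 tested collagens (points, with bars of 1 SE) in the 3 contrasts, ordered by class between dotted lines; filled red points passed the adjusted threshold. Col12a1 is highest after resection (1.37) and lowest for vagotomy minus resection (-1.14), and the filled points are Col5a3 (1.73) and Col14a1 (-1.61) for vagotomy minus sham.

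The 15 collagens named in the authors' comparison table but not listed in the matrix were low in every group. The lowest row maximum in the matrix was 1.00001 FPKM, so listing appears to need a value above 1 FPKM in at least 1 library. Low values of unlisted genes then follow from that selection. In the authors' deposited tables all had group values below 1 FPKM; the highest was Col20a1, at 0.887 FPKM in the vagotomy group, after 0.35 in sham and 0.645 with resection alone. Col9a3, a cartilage FACIT chain, was given as 0.753, 0.0382 and 0.228 FPKM and Col8a2, the partner of Col8a1, as 0.604, 0.287 and 0.18, both without a test by the authors. The cartilage collagen Col2a1, the hypertrophic cartilage collagen Col10a1, and Col4a3 and Col4a4, which join Col4a5 in kidney basement membrane, were in this low set.

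The authors' deposited Cuffdiff tables call more collagens than limma did. For resection against sham, 5 of the 25 listed collagens they tested (20.0%) had a q-value of at most 0.05, where 6.12% of all genes tested did (4.18% higher and 1.93% lower). In the authors' deposited table Col5a3, Col8a1 (both q = 0.00161), Col12a1 (q = 0.0328) and Col5a2 (q = 0.0335) were higher, and Col14a1 (q = 0.00161) was lower. For vagotomy against resection, 6 of the 29 listed collagens (20.7%) were called by the authors' deposited table, where 17.1% of all genes tested were (8.52% higher and 8.56% lower). In the authors' deposited table Col1a2 was higher (q = 0.0476), and Col8a1 (q = 0.000995), Col4a5 (q = 0.00425), Col15a1 (q = 0.0161), Col3a1 (q = 0.0266) and Col24a1 (q = 0.0383) were lower. Col20a1, not listed in the matrix, was also tested in the authors' deposited table and not called (q = 0.502). Both tables share the resection libraries.

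Chains of the same collagen type, and Col3a1 and the type I chains, were compared by the ratio of their FPKM in each library. The ratio of Col1a1 to Col1a2 was 3.74, 2.58 and 2.66 in sham, 1.79, 1.985 and 2.20 after resection and 1.49, 1.47 and 0.719 in the vagotomy group. The groups did not overlap: the lowest sham ratio exceeded the highest resection ratio, and the lowest resection ratio exceeded the highest vagotomy ratio. An exact two-sided permutation test gave p = 0.1 for each pair of groups, the smallest that 3 against 3 libraries allow, and 0.25 after Benjamini-Hochberg adjustment over 15 ratio comparisons. The ratio of Col3a1 to Col1a1 was 1.42 ± 0.526, 1.46 ± 0.472 and 0.631 ± 0.272. Every vagotomy library was below every resection library (exact permutation p = 0.1, adjusted p = 0.25), with overlap between vagotomy and sham (exact permutation p = 0.2, adjusted p = 0.375). The ratio of Col3a1 to Col1a2, chosen after the values were seen, was 4.02 ± 0.846, 2.91 ± 0.977 and 0.704 ± 0.21. Every vagotomy library was below the 6 others (exact permutation p = 0.1, adjusted p = 0.25). As these 2 genes had already been seen to move apart, this separation is a description and adds no support.

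The ratios of Col4a1 to Col4a2 and of Col6a1 to Col6a2 overlapped between groups. Col4a1 to Col4a2 was 1.15 ± 0.217, 1.57 ± 0.565 and 1.19 ± 0.118. Col6a1 to Col6a2 was 0.9425 ± 0.125, 0.937 ± 0.08885 and 0.934 ± 0.0767, with exact permutation p of 0.9 or 1.0 in each comparison.

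**Figure D3:**
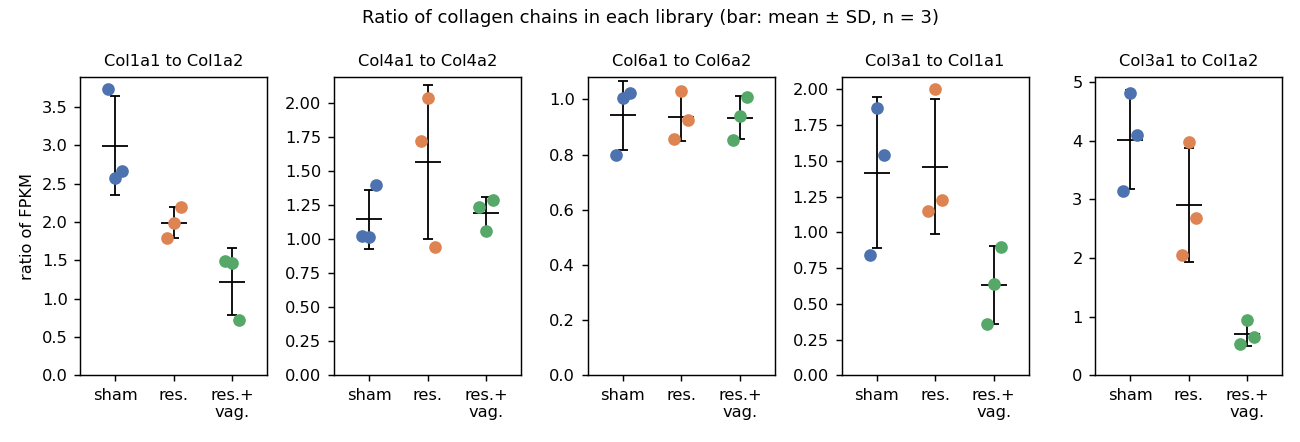
Ratios of FPKM of pairs of collagen chains in each library (points) with the group mean and SD (bars, n = 3). The Col1a1 to Col1a2 ratio steps down from sham (2.58 to 3.74) through resection (1.79 to 2.20) to vagotomy (0.719 to 1.49) without overlap, while the Col6a1 to Col6a2 ratio stays between 0.799 and 1.03 in all 9 libraries.

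GC content of the transcript moved with the vagotomy contrasts. Over the 24 tested collagens the correlation of GC content of the longest transcript with the log2 change was -0.006 (Pearson; Spearman -0.036) for resection minus sham, 0.697 (0.648) for vagotomy minus resection and 0.538 (0.582) for vagotomy minus sham. Over the 13118 tested genes with a GC value the Pearson values were 0.083, 0.292 and 0.31. These are descriptions across genes of the same libraries, and genes are not independent replicates. Of the 12 collagens above 55.4% GC, 9 had a positive log2 change for vagotomy minus resection (median 0.21), and of the 12 at or below it, 3 did (median -0.53); over all tested genes the medians on the 2 sides were 0.33 and -0.04. Col3a1 has 52.5% GC, Col14a1 49.7%, Col12a1 48.3%, Col4a5 51.5%, Col1a1 58.9%, Col1a2 55.7%, and Col5a3 61.6%. Other members went against that order. Above the boundary, Col15a1 (56.4%), Col5a1 (58.0%) and Col4a1 (57.7%) had negative changes for vagotomy minus resection (-0.95, -0.24 and -0.09). Below it, Col6a2, Col6a6 and Col23a1 had positive ones (0.24, 0.27 and 0.02).

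With each library's trend of expression on GC removed, an alternative chosen after seeing the data, Col12a1 (adjusted p = 0.0367) and Col15a1 (adjusted p = 0.0499) passed for vagotomy minus resection. For vagotomy minus sham 5 collagens then passed: Col3a1 (log2 change -1.40, adjusted p = 0.0232), Col4a5 (-1.03, adjusted p = 0.037), Col11a1, Col14a1 and Col5a3. The median collagen change in that contrast was -0.10 in place of 0.21. The share of all tested genes called in this fit is not given here, so these counts cannot be set beside it.

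**Figure D4:**
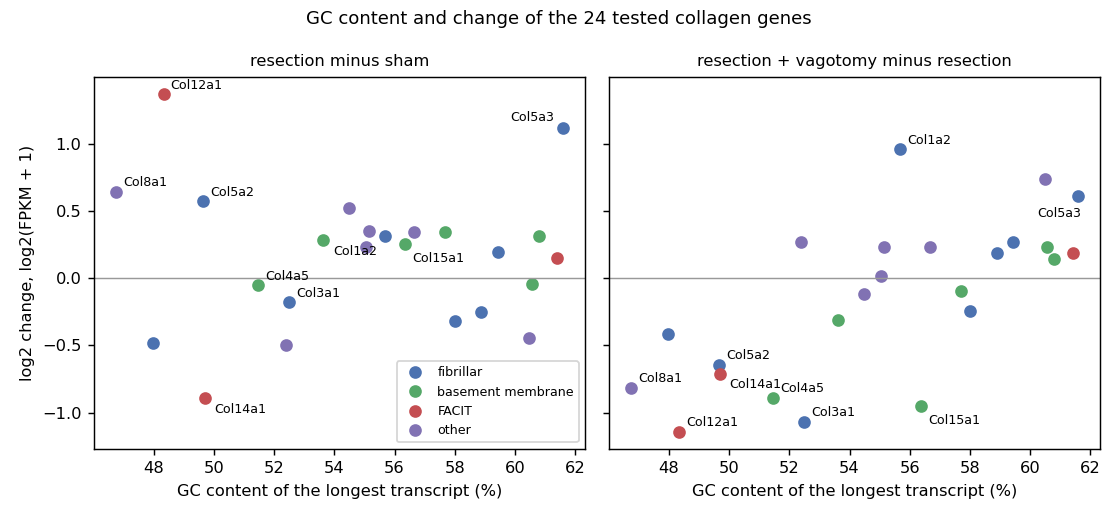
GC content of the longest transcript (percent) against log2 change for the 24 tested collagens, for resection minus sham and for vagotomy minus resection, coloured by class. No slope is seen in the first panel (r = -0.006) and a rising one in the second (r = 0.697).

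Promoter letters were counted for the 24 listed collagens with a RefSeq window; Col1a1, Col5a2, Col12a1, Col14a1 and Col26a1 have none in the table. GGGCGG or its reverse was in 18 of 26 collagen windows, against 32.7% of all windows, CCAAT in 9, and TATAAA in 3 (Col11a2, Col13a1 and Col3a1). TGANTCA, the core of AP-1 sites, was in 1 window (Col6a1), against 6.75% of all windows.

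Genes that make, bind and degrade collagen were followed as 5 lists, 100 listed genes of which 94 were tested. For resection minus sham 1 was called (higher), where 0.294% of all tested genes were. For vagotomy minus resection 1 higher and 1 lower were called (3.52% of all tested genes), and for vagotomy minus sham 13 higher and 2 lower (10.1% of all tested genes). The medians were 0.17, -0.00 and 0.18. Without sham replicate 2 the last contrast had 1 call in place of 15, without sham replicate 3 it had 3, and without a vagotomy replicate 8, 9 or 6. With the replicate block vagotomy minus resection had 10 calls, 4 higher and 6 lower. The shares of all tested genes called in these alternative fits are not given here.

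Of 31 genes for chain modification, secretion, propeptide removal and cross-linking (29 tested), Loxl2 fell and Pcolce rose between resection and vagotomy. In that contrast 1.97% of all tested genes were called higher and 1.55% lower. Between resection and sham none of the 29 tested was called. Loxl2, a lysyl oxidase that cross-links collagen IV and fibrils, measured 27.2, 19.35 and 28.6 FPKM in sham, 30.6, 36.75 and 11.2 after resection, and 3.17, 3.98 and 4.43 in the vagotomy group, wholly below both other groups (log2 change from resection -2.34, SE 0.39, adjusted p = 0.0214). Pcolce, which enhances removal of the C-propeptide of fibrillar procollagens, measured 55.2, 25.3 and 25.6 FPKM in sham, 54.85, 24.1 and 20.98 after resection and 241.5, 126 and 159.9 in the vagotomy group, wholly above both (log2 change 2.45, SE 0.44, adjusted p = 0.0241). Loxl2 shares its deposited locus with 4 other genes and Pcolce overlaps Fbxo24, so their values depend on how reads were split. With a library left out, neither was called without sham replicate 3, resection replicate 2, vagotomy replicate 1 or vagotomy replicate 3.

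Against sham, Leprel1 (a prolyl 3-hydroxylase), Plod3 (a lysyl hydroxylase and glycosyltransferase) and Pcolce rose in the vagotomy group, and Loxl2 and Crtap (a partner of prolyl 3-hydroxylation) fell. Over all tested genes 5.81% were called higher and 4.26% lower in that contrast. Plod3 averaged 18.5 ± 3.44 FPKM in sham, 29.9 ± 12.3 after resection and 44.85 ± 6.57 in the vagotomy group, and Crtap 99.3 ± 35.7, 106 ± 29.1 and 41.9 ± 6.14. Lox, the main cross-linking oxidase, measured 11.1, 15.1 and 20.3 FPKM in sham, 23.97, 36.9 and 44.2 after resection and 19.0, 13.3 and 12.4 in the vagotomy group, with every resection library above the 6 others; its changes did not pass (log2 change 1.12, adjusted p = 0.305, and -1.16, adjusted p = 0.0658). Adamts3, a procollagen N-proteinase, averaged 5.78, 3.19 and 5.69 FPKM (log2 change -0.74 for resection minus sham, adjusted p = 0.705).

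Of 20 fibril and basement membrane partners (all tested), none was called between resection and sham or between vagotomy and resection. Between sham and vagotomy 4 rose (Lamc1, Tnc, Thbs1 and Sparc), where 5.81% of all tested genes were called higher. Sparc, a collagen-binding matricellular protein, measured 910.2, 816.5 and 735 FPKM in sham, 929, 732 and 1076 after resection and 1435, 2162 and 2360.0 in the vagotomy group, wholly above the others (log2 change from sham 1.25, adjusted p = 0.0405). Lamc1, a laminin chain, averaged 96.8 ± 6.04, 111 ± 6.50 and 217 ± 28.25 FPKM (against resection 0.95, adjusted p = 0.0553). Tenascin-C (Tnc) averaged 10.7 ± 4.83, 35.9 ± 8.27 and 29.9 ± 1.10 FPKM and thrombospondin 1 (Thbs1) 18.01 ± 7.64, 69.7 ± 24.8 and 61.3 ± 20.6. For both, every library of the operated groups was above every sham library; resection minus sham gave adjusted p = 0.0579 for Tnc and 0.0674 for Thbs1. Bgn averaged 251, 359.6 and 208 FPKM, and Lamb2 39.2, 41.6 and 87.5, with no call.

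Of 12 collagen receptors and binding surface proteins (10 tested), Cd44 and Mrc2 rose between sham and vagotomy, and none was called in the other contrasts. Over all tested genes 5.81% were called higher between sham and vagotomy. Mrc2, an endocytic receptor that takes up collagen fragments, averaged 5.78 ± 2.83 FPKM in sham, 6.75 ± 3.45 after resection and 14.65 ± 1.01 in the vagotomy group. Cd44, the hyaluronan receptor, averaged 7.295 ± 2.085, 26.8 ± 11.95 and 20.7 ± 5.27 FPKM. Sdc4, Sdc1 and Ddr1, which had the next smallest p, averaged 9.16, 23.9 and 25.8 for Sdc4, 9.37, 12.8 and 7.50 for Sdc1, and 23.0, 31.55 and 64.3 FPKM for Ddr1.

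Of 16 proteases and protease inhibitors (14 tested), Timp1 rose between sham and resection, where 0.287% of all tested genes were called higher. Mmp9, Timp1, Ctsl and Timp4 rose between sham and vagotomy, where 5.81% of all tested genes were called higher. Timp1, an inhibitor of matrix metalloproteinases, measured 12.7, 10.03 and 25.3 FPKM in sham, 121, 54.3 and 107 after resection and 76.6, 59.4 and 67.9 in the vagotomy group, both wholly above sham (log2 change 2.50, SE 0.39, adjusted p = 0.0311 for resection). The call of Timp1 for resection was the only one in the 5 lists, and there was none without sham replicate 1 or 2, resection replicate 1 or 3, or any single vagotomy replicate. Timp1 shares its deposited locus with 7 other genes. Mmp9, a gelatinase, averaged 1.87 ± 0.865, 12.35 ± 6.77 and 15.6 ± 7.94 FPKM, the cathepsin Ctsl 69.55 ± 10.9, 119 ± 19.0 and 178.5 ± 13.3, and Timp4 2.33 ± 0.445, 4.36 ± 3.51 and 8.96 ± 0.464. Mmp19 and Reck, not called, averaged 1.73, 11.96 and 5.63 FPKM and 2.95, 2.22 and 4.04.

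Of 21 inducers and repressors of collagen transcription (all tested), none was called in any contrast by limma; 2, 1 and 3 had an unadjusted p under 0.05 for resection minus sham, vagotomy minus resection and vagotomy minus sham, where 5.89%, 24.2% and 30.1% of all tested genes did. Ctgf, a matricellular target of TGF-beta and YAP signalling, measured 38.8, 26.1 and 42.6 FPKM in sham, 167, 123 and 35.8 after resection and 92.3, 65.2 and 74.45 in the vagotomy group, so that resection replicate 3 lay within the sham range (log2 change 1.34, adjusted p = 0.568). Smad7, the inhibitory Smad, averaged 16.35 ± 7.64, 19.7 ± 4.505 and 7.33 ± 2.41 FPKM (vagotomy minus resection -1.33, SE 0.35, adjusted p = 0.0646). The TGF-beta receptor Tgfbr2 averaged 25.02 ± 2.61, 40.65 ± 6.17 and 39.5 ± 3.29 FPKM.

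Cell type markers were read beside these values. The summed FPKM of 7 cardiac fibroblast markers was 545.5 to 591.5 in sham, 554.5 to 578 after resection and 578 to 657 in the vagotomy group. Within the list Gsn rose and Mfap5 fell between sham and vagotomy. Dcn and Gsn make up most of the sum, and the median log2 change of the 7 was -0.31 in that contrast. The 5 activated fibroblast markers summed to 565 to 716, 583 to 707 and 567 to 680.2. The 2 most abundant moved apart without a call: Postn averaged 310, 318 and 180 FPKM and Acta2 271, 256 and 395. The median log2 change of the 5 was -0.66 for vagotomy minus resection and -0.86 for vagotomy minus sham. Cthrc1 fell between resection and vagotomy (45.4 ± 9.89 to 6.75 ± 4.06 FPKM, adjusted p = 0.0166). Against sham Cthrc1 fell (adjusted p = 0.034) and Tnc rose (adjusted p = 0.021) in the vagotomy group. Endothelial markers (6) summed to 264 to 348.5, 302.5 to 340.1 and 289.6 to 341, and smooth muscle and pericyte markers (7) to 114 to 124, 106 to 155 and 145.5 to 159. Emcn fell in both vagotomy contrasts and Tagln rose against sham; no other endothelial, smooth muscle or pericyte marker was called.

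Leukocyte markers were higher in both operated groups. The 6 monocyte and macrophage markers summed to 29.8 to 49.7 FPKM in sham, 127.5 to 247.5 after resection and 174 to 218 in the vagotomy group. Against sham, 2 were called higher in resection and 5 in vagotomy, where 0.287% and 5.81% of all tested genes were called higher. The 4 neutrophil markers summed to 17.3 to 40.05, 192 to 276 and 105 to 298, with 1 and 3 higher calls against sham. For vagotomy minus resection S100a8 was called lower (log2 change -1.94). In that contrast S100a9 (1.49) and Retnlg (1.58) were higher without a call, and Csf3r was at -0.12. The part of this change in the collagen and pathway values was not tested. Epicardial and mesothelial markers (6) summed to 47.1 to 49.4, 50.8 to 87.9 and 26.6 to 59.3, and platelet markers (3 of 4 listed) to 4.10 to 6.32, 14.4 to 48.3 and 10.4 to 19.5, with no call.

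The tissue showed its defining markers: the 6 cardiomyocyte markers summed to 9101 to 10470.0 FPKM in sham, 6975 to 12300.0 after resection and 7824 to 27860.0 in the vagotomy group. The highest sum was that of vagotomy replicate 3, with Tnnt2 at 18820.0 FPKM against at most 4372 in the other libraries. Among them Myh6 is listed at 0 in all 3 vagotomy libraries and at 1326 to 3718 FPKM in the other 6. Since the other 5 are well above 0 in every library, that 0 may be a failed estimate and is not read as a level. The sums above include Myh6, so those of the vagotomy group cannot be compared with those of sham or resection. Mean Tnnt2, Tnni3 and Actn2 were higher in the vagotomy group than in sham, and mean Ryr2 and Pln were slightly lower. Actn2 rose in the vagotomy group. Of markers of connective tissues rich in other collagens, only Sox9 of 5 cartilage genes and Scx of 3 tendon genes are listed, at most 6.38 and 5.02 FPKM, and 0 of 4 bone genes. Of 5 Schwann cell genes 2 are listed, with sums of 3.08 to 6.24 FPKM, of 4 keratinocyte genes 2, with sums of 0.601 to 7.80, and of 5 skeletal muscle genes 1 (Ckm, which heart also expresses), at 199 to 739 FPKM. No gene listed for these tissues was called.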

How the data were processed

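RNA from 9 samples, 3 each of sham, resection, and resection with vagotomy, was sequenced; the build GRCm38, the aligner TopHat2 2.0.9, and Cufflinks and Cuffdiff (both 2.1.1) are listed per the submitters' processing notes. The authors deposited a matrix of FPKM with a pseudocount of 1 added, and 2 tables with group FPKM, p-values and q-values for resection against sham and vagotomy against resection. Strand and counting settings are not given in the sources used here. No column of per-sample values was left unused (0).

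The pseudocount was subtracted, and log2(FPKM + 1) was fitted with limma 3.58.1 in R 4.3.3: 9 libraries together, 1 mean per group, moderation with a mean-variance trend, a filter of at least 1 mean FPKM, two-sided tests, Benjamini-Hochberg adjustment over 13249 genes and a threshold of 0.05. Depth is unknown and whole reads could not be recovered, so no count test was run. Gene models and GC content came from GENCODE M21, which held 14307 of the matrix rows and all 44 collagens; promoter windows of 250 bases came from RefSeq (GRCm38.p6). The fit was tested on simulated data. The named genes are the 4 highest of each class, those past the threshold or among the 5 smallest p-values of a contrast, a fixed set of major collagens, and in each pathway list those past the threshold or among the 3 smallest p-values. The members, lists, markers and tests were chosen with earlier results of these data known.

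Replicate numbers were checked by the correlation, over genes, of deviations from group means. For libraries of the same number it was 0.199, 0.141 and 0.117 between resection and vagotomy. It was 0.498, 0.197 and 0.013 between sham and resection, and 0.186, 0.17 and -0.019 between sham and vagotomy. Between libraries of different number it ran from -0.448 to 0.335, and from -0.131 to -0.021 between resection and vagotomy alone. Deviations from a group mean sum to 0 over its libraries, so these correlations are not independent of one another. These values do not settle whether a number marks a pair. The labels do not say what a number marks, and the submitters' own names give the libraries of replicate 3 different numbers. The replicate block was therefore fitted only as an alternative, over all 9 libraries, sham included. Alternatives were other pseudocounts, filters, scalings and moderation, only the libraries compared, a replicate block, each library left out, the authors' q-values and, added after seeing the data, removal of the GC trend.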

Additional observations from a re-analysis of the deposited data

How the results depend on the processing

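Of 524 alternative values over 25 results, 423 were counted as unchanged. For single genes that meant the same direction and the same side of the threshold. For counts it meant staying within 1.5 times. For medians it meant lying within 0.248, the replicate SD of the collagen median, of the value given above, whatever the sign. Of 313 values for single collagens 278 were unchanged, 8 lost the call, 27 gained one and 0 reversed. The collagen calls were few, so a count here moves with 1 gene. The cause of each move was not tested. Shares of all tested genes called in the alternative limma fits are not given. A changed count of collagens or pathway genes therefore cannot be read as particular to them. For resection minus sham the 0 calls by limma stayed at 0 with each library left out, and the authors' q-value called 5. For vagotomy minus resection the 0 calls became 2 with the replicate block (Col12a1 and Col4a5), 2 with the GC trend removed, 3 with both, 6 by the authors' q-value and 0 to 1 with a library left out. For vagotomy minus sham the 2 calls became 4 with a mean of at least 5 FPKM, 4 with upper-quartile scaling, 4 with quantile normalization, 6 with the replicate block, 5 with the GC trend removed, 6 with both, and 0 to 3 with a library left out. For the F-test the 2 calls became 1 with a mean of at least 5 FPKM, 4 with the replicate block, 4 with the GC trend removed, 5 with both, and 0 to 2 with a library left out. Col1a2 passed against sham only with the replicate block (adjusted p = 0.0447). In every contrast that block spans all 9 libraries, sham included, and rests on a number whose meaning the labels do not give.

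Of the pathway lists, the 1 call for resection minus sham became 2 with a pseudocount of 0.1, 2 with a mean of at least 5 FPKM, 3 with robust moderation, 4 with the replicate block, 3 with the GC trend removed, 3 with both, 0 in a fit of only the 6 libraries compared, and 0 to 2 with a library left out. The 2 for vagotomy minus resection became 4 with a mean of at least 5 FPKM, 4 with upper-quartile scaling, 5 with quantile normalization, 10 with the replicate block, 11 with the GC trend removed, 12 with both, 0 with only the 6 libraries, and 0 to 4 with a library left out. The 15 for vagotomy minus sham became 24 with the replicate block, 23 with the GC trend removed, and 1 to 19 with a library left out. The median collagen change was -0.0291 (without resection replicate 1) to 0.34 for resection minus sham with a library left out; for vagotomy minus sham it was -0.10 with the GC trend removed, -0.10 with the replicate block and GC trend removed, and -0.0026 to 0.34 with a library left out. For vagotomy minus resection the median was -0.04 in the fit given above. It ran from -0.277 with the GC trend removed to 0.0676 without resection replicate 1, so its sign was not stable. Where a group keeps 2 libraries, the spread is shared with the other groups. Unknown depth leaves the counting error of the low collagens, those near 1 FPKM, unstated.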
